A study of Homo sapiens with 12 samples.

Results

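RNA of RCC4, a clear cell renal cell carcinoma line, was compared between 2 forms of the line, and the measure described here is how far the effect of JQ1 differed between them. For each gene the log2 fold change of JQ1 against DMSO in VHL-positive cells was subtracted from the same log2 fold change in VHL-negative cells. A positive difference therefore means that the response was higher in VHL-negative cells, and a negative one that it was lower. The comparison used 12 of the 12 libraries, and 20714 of the 60663 deposited genes had enough counts to be tested.

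VHL-negative cells are RCC4 with loss of VHL, and VHL-positive cells are the same line after VHL was reintroduced. Both were kept in geneticin and were given either 5 µM JQ1 or DMSO, the solvent control, so that the 12 libraries formed 4 groups of 3. The construct that carried VHL, the time of treatment and whether the lines were single clones are not given in the sources used here. The labels do not say whether replicates came from separate cultures, and p-values then measure only the spread between these libraries, which may be technical. The 2 lines may also differ in more than VHL, and this cannot be told apart from VHL in this design. In bulk RNA, fewer cells in a given state and less RNA per cell cannot be told apart either.

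VHL is the substrate-binding part of a ubiquitin ligase. It recognises the alpha subunits of the hypoxia-inducible factors (HIF) after prolyl hydroxylation and sends them to the proteasome. Its loss is the founding lesion of most clear cell renal carcinomas, in which HIF target genes for glucose use, vessel growth and lipid storage are active in normal oxygen. JQ1 displaces BET proteins from acetylated histones and lowers transcription of many enhancer-driven genes, MYC among them in many tumour lines; the labels call it a MYC inhibitor.

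Library totals ran from 15452949 to 32502310 counts, and mitochondrial RNA took between 9.90 and 25.3% of them. The nuclear RNAs NEAT1 and MALAT1 together took 1.5, 4.01 and 2.84% of counts in the VHL-negative JQ1 libraries, between 1.22 and 1.41% in the VHL-positive JQ1 libraries and between 0.271 and 0.838% under DMSO. Of 12 renal epithelial markers, 6 were above 10 CPM in every library and 1 was under 1 CPM in all, with a summed level between 1024 and 1854 CPM. Under 1 CPM in every library were 7 of 10 endothelial, 10 of 12 leukocyte and 6 of 10 fibroblast markers. Their summed levels ran from 3.63 to 14.1, from 1.40 to 4.65 and from 3.88 to 17 CPM.

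Single libraries moved the number of genes that passed. Without VHL-negative JQ1 replicate 1 the count of genes called for the difference went from 250 to 3510, with all 250 among them. The count was 43 without VHL-negative JQ1 replicate 3 and 55, 62 or 82 without VHL-positive JQ1 replicate 1, 2 or 3. It was 103 without VHL-negative JQ1 replicate 2, between 124 and 165 without each VHL-negative DMSO library, and 203, 345 and 142 without VHL-positive DMSO replicate 1, 2 and 3. All 250 genes kept the sign of their difference in these fits, and 38 of them passed in all 12. Of 54 genes taken by the rule for named genes, 35 lost the call without VHL-negative JQ1 replicate 3, and 29, 29 and 24 without VHL-positive JQ1 replicate 1, 2 and 3.

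**Figure D1:**
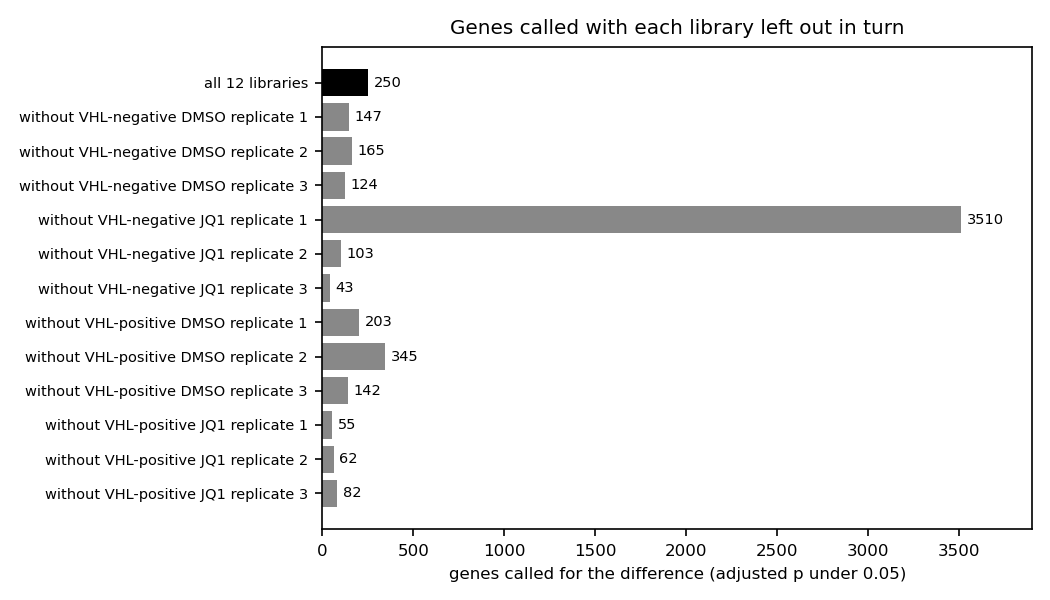
Number of genes called for the difference between the JQ1 effects (horizontal axis, adjusted p under 0.05) with all 12 libraries and with each library left out in turn (bars). The count is 250 with all libraries, 43 without VHL-negative JQ1 replicate 3 and 3510 without VHL-negative JQ1 replicate 1.

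Does the JQ1 response depend on VHL across the transcriptome? In edgeR's quasi-likelihood test, with p-values adjusted by Benjamini-Hochberg across the whole table, 250 genes, 1.21% of those tested, had a difference at an adjusted p under 0.05. Of these, 103 (0.497%) were higher and 147 (0.710%) lower in VHL-negative cells. At an unadjusted p under 0.05 there were 4657 genes. The median difference was log2 0.01 over all tested genes and the median absolute difference was 0.41, against 1.31 for the called genes. A difference of differences adds the errors of 4 groups. Its median SE was 0.314, compared with 0.222 and 0.221 for the JQ1 effect in VHL-negative and VHL-positive cells, and no gene with an absolute difference under 0.65 was called. Of the 250 genes, 186 differed at least 2-fold.

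The JQ1 effect itself passed the test in far more genes. In VHL-negative cells 3032 rose (14.6%) and 3617 fell (17.5%), and in VHL-positive cells 3167 rose (15.3%) and 3422 fell (16.5%). Across all tested genes, which are not independent replicates, the 2 effects had a Pearson correlation of 0.586.

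The 103 genes with a higher response in VHL-negative cells came about in several ways. JQ1 lowered 39 of them in VHL-positive cells with no call in VHL-negative cells, and raised 34 in VHL-negative cells with no call in VHL-positive cells. A further 21 rose in VHL-negative and fell in VHL-positive cells, 6 rose in both and 3 fell in both. Of the 147 genes with a lower response, 60 fell in VHL-negative cells with no call in VHL-positive cells, and 36 fell in both. Another 32 rose in VHL-positive cells with no call in VHL-negative cells, 15 fell in VHL-negative and rose in VHL-positive cells, and 4 rose in both. The lines stood further apart under JQ1 than under DMSO for 146 of the 250 genes and closer for 104.

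**Figure D2:**
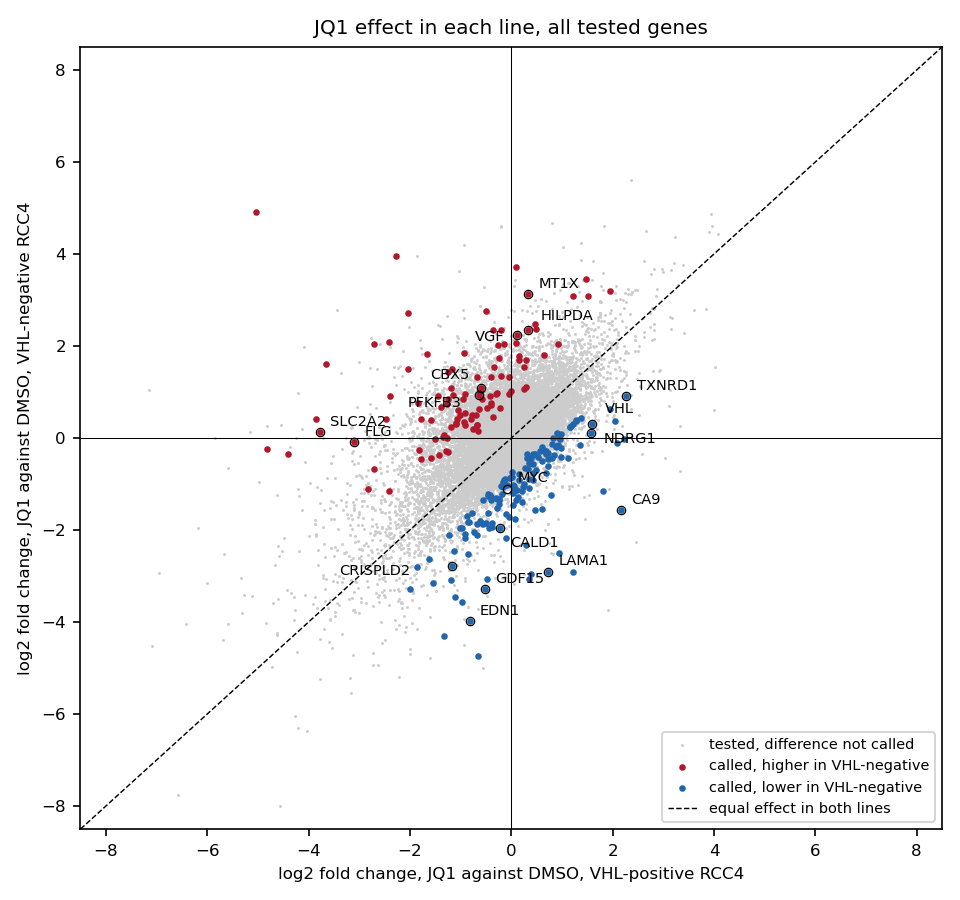
JQ1 effect in VHL-positive cells (horizontal axis, log2 fold change of JQ1 against DMSO) against that in VHL-negative cells (vertical axis) for all 20714 tested genes (points). The dashed line marks equal effects; the 103 genes called higher in VHL-negative cells (red) lie above it and the 147 called lower (blue) lie below it.

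VHL (ENSG00000134086, GRCh38 chromosome 3, 10141008 to 10152220) was measured first, as a check of the labels. The VHL-negative cells gave 24.9, 28.2 and 26.2 CPM (gene counts scaled to a common library total, with TMM factors) under DMSO and 35.2, 32.4 and 30.5 CPM under JQ1. The VHL-positive cells gave 67.3, 64.6 and 78.9 CPM under DMSO and 219.7, 196 and 221 CPM under JQ1. Every VHL-positive library lay above every VHL-negative one, and with JQ1 the gap between the lines widened from 2.66-fold to 6.49-fold. The difference between the JQ1 effects was called (log2 -1.29, SE 0.173, 95% interval -1.65 to -0.92, adjusted p = 0.00161). A count per gene does not separate the reintroduced copy from the resident gene. VHL RNA in VHL-positive cells rose with JQ1 (log2 1.59, adjusted p = 3.47e-07), and the part of that rise in the other differences was not tested.

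HILPDA (ENSG00000135245, GRCh38 chromosome 7, 128455849 to 128458418) encodes a small lipid droplet protein that inhibits adipose triglyceride lipase, and it is a HIF target named in the title of the study. It measured 19.8, 25.9 and 19 CPM under DMSO and 114, 108 and 108 CPM under JQ1 in VHL-negative cells. In VHL-positive cells it measured 6.43, 6.45 and 5.96 CPM without and 8.01, 8.18 and 7.58 CPM with JQ1. The groups did not overlap in either line, but the step was 5.1-fold in VHL-negative and 1.26-fold in VHL-positive cells. By edgeR's quasi-likelihood test the step passed in VHL-negative cells (log2 2.35, adjusted p = 1.23e-08) and not in VHL-positive cells (log2 0.34, adjusted p = 0.0779). The difference was called (log2 2.01, SE 0.19, 95% interval 1.61 to 2.42, adjusted p = 6.6e-05) and ran from log2 1.91 to 2.17 over the 12 fits that left out 1 library, with a call in all of them. Other annotated genes overlap 13.2% of its exon length.

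MYC (ENSG00000136997, GRCh38 chromosome 8, 127735434 to 127741434), the transcription factor that the labels name as the target of JQ1, measured 439, 305 and 283 CPM under DMSO and 189, 131 and 160.2 CPM under JQ1 in VHL-negative cells. In VHL-positive cells the values were 125, 221 and 167 CPM without and 148, 183 and 153 CPM with JQ1. The groups were apart in VHL-negative cells and overlapped in VHL-positive cells. The difference missed the threshold (log2 -1.01, SE 0.294, 95% interval -1.63 to -0.39, adjusted p = 0.0852), which does not show that the MYC response was alike in the lines.

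**Figure D3:**
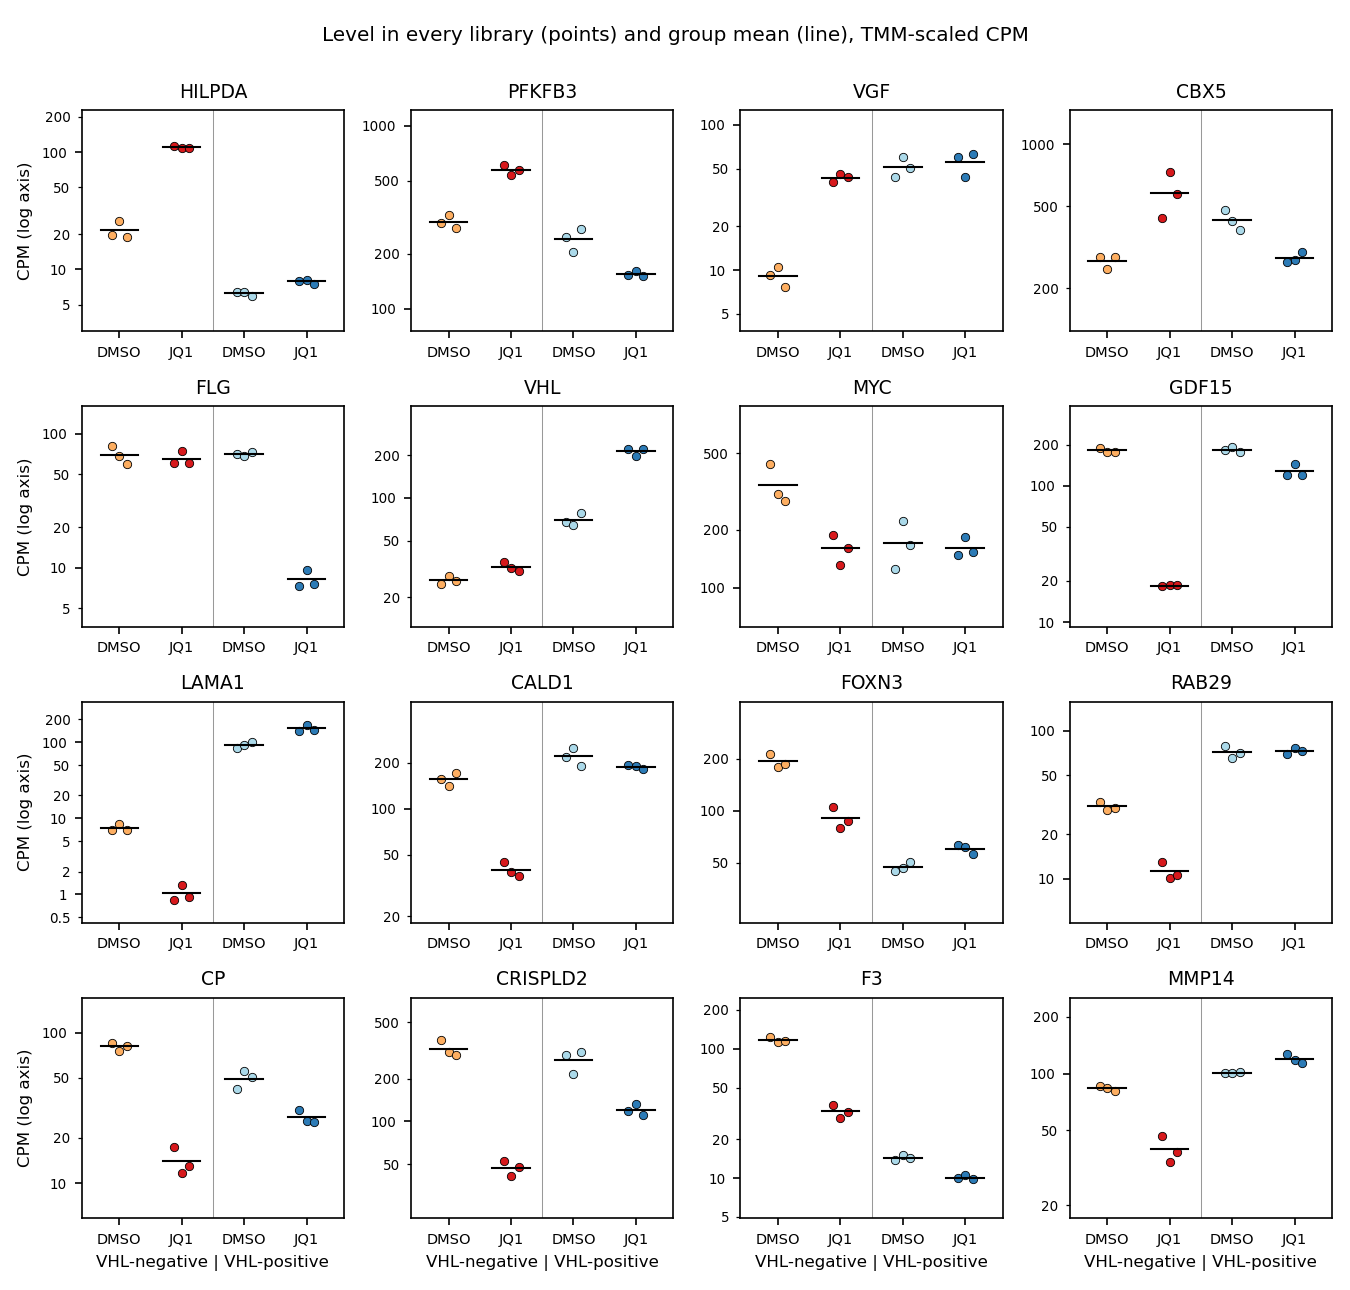
Level of 16 genes in every library (points; vertical axes, TMM-scaled CPM on a log axis) and the mean of each group (lines), with VHL-negative cells left and VHL-positive cells right of the vertical line in each panel. Group means of HILPDA go from 21.6 to 110.0 CPM with JQ1 in VHL-negative cells and from 6.28 to 7.92 CPM in VHL-positive cells, FLG falls from 70.3 to 8.20 CPM in VHL-positive cells, and GDF15 falls to 18.5 CPM in VHL-negative and to 127 CPM in VHL-positive cells.

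HIF target genes did not share a direction. Of 44 tested members of a list of HIF targets, 4 were higher (HILPDA, PFKFB3, VEGFA and RORA), 2 were lower (CA9 and NDRG1) and 38 were not called. Over all tested genes 0.497% were higher and 0.710% lower. The median difference was log2 0.01, as it was over all tested genes, and it changed sign in 10 of 23 other settings. PFKFB3 (ENSG00000170525, GRCh38 chromosome 10, 6144934 to 6254644) makes the fructose 2,6-bisphosphate that drives glycolysis. It went from 295, 327 and 275 to 607, 538 and 571 CPM in VHL-negative cells and from 246, 204 and 275 to 153, 162 and 152 CPM in VHL-positive cells. JQ1 thus raised PFKFB3 1.91-fold in one line and lowered it 1.56-fold in the other, with no overlap in either. The difference was called (log2 1.57, SE 0.189, 95% interval 1.17 to 1.98, adjusted p = 0.000872), also in all 12 fits without 1 library.

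VEGFA (ENSG00000112715, GRCh38 chromosome 6, 43770184 to 43786487), the main vessel growth factor under HIF, measured 157, 173 and 147 CPM under DMSO and 211, 237 and 226 CPM under JQ1 in VHL-negative cells, and 47, 92.7 and 51.3 CPM without and 34.3, 29.4 and 31.2 CPM with JQ1 in VHL-positive cells. The fall in VHL-positive cells passed the test (log2 -1.01, adjusted p = 0.00119), while the step in VHL-negative cells did not (log2 0.50, adjusted p = 0.0614). VHL-positive DMSO replicate 2 stood above the other two of its group. The difference was called (log2 1.5, SE 0.278, 95% interval 0.91 to 2.09, adjusted p = 0.0163), and without that library it was log2 1.11. The call was lost without VHL-negative JQ1 replicate 3 or VHL-positive JQ1 replicate 1, 2 or 3 (adjusted p from 0.0545 to 0.0645). RORA, a nuclear receptor, was named after its values were seen because it completes the called members of this list of HIF targets. It went from 13.2 ± 1.53 (SD, n = 3) to 24.9 ± 5.28 CPM in VHL-negative cells and from 2.44 ± 0.221 to 1.83 ± 0.00916 CPM in VHL-positive cells (log2 1.33, SE 0.255, adjusted p = 0.0202; called in 7 of 12 fits without 1 library).

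CA9 and NDRG1 went the other way. CA9 (ENSG00000107159, GRCh38 chromosome 9, 35673856 to 35681159), the cell surface carbonic anhydrase used as a marker of clear cell renal carcinoma, fell in VHL-negative cells from 97.8, 75.8 and 77 to 34.2, 24.1 and 26.1 CPM. With VHL present it was nearly silent, with 11 counts over the 3 DMSO libraries and 42 over the 3 JQ1 libraries, 1 of which had none. The difference (log2 -3.73, SE 0.701, 95% interval -5.22 to -2.24, adjusted p = 0.0179) thus rests on few counts on the VHL-positive side, and other genes overlap 38.5% of CA9 exons. Its call was lost without VHL-negative JQ1 replicate 3 or VHL-positive JQ1 replicate 1 or 2 (adjusted p from 0.055 to 0.137). NDRG1 (ENSG00000104419, GRCh38 chromosome 8, 133237171 to 133302022), a stress and hypoxia response gene, stood between 457 and 665 CPM in all 6 VHL-negative libraries. In VHL-positive cells it went from 80.4, 59.7 and 112 to 257, 244 and 250.1 CPM, a 2.97-fold rise toward the VHL-negative level. The difference was called (log2 -1.45, SE 0.278, 95% interval -2.04 to -0.86, adjusted p = 0.0202), and the call was lost without VHL-negative JQ1 replicate 3 or VHL-positive JQ1 replicate 1, 2 or 3 (adjusted p from 0.0536 to 0.0724).

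Some uncalled HIF targets are given for comparison, chosen after their values were seen. ANGPTL4, a lipase inhibitor, had a larger difference than PFKFB3 but with more spread (log2 1.93, SE 0.629, adjusted p = 0.109). Nearest to the threshold were SPAG4 (log2 0.93, SE 0.24, adjusted p = 0.067), MXI1, a MYC antagonist (log2 -0.84, SE 0.219, adjusted p = 0.0703), and SLC2A3, a glucose transporter (log2 0.98, SE 0.267, adjusted p = 0.0758). The difference was log2 -0.01 for SLC2A1, the main glucose transporter, and log2 0.06 for the mitophagy receptor BNIP3. Of 15 factors of the HIF pathway (subunits, prolyl hydroxylases and VHL itself), VHL was the 1 called member, and of 21 glycolysis enzymes 0 were called (1.21% over all tested genes). Their medians were log2 -0.22 and -0.05.

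Promoter sequence was available for some of the genes that moved furthest, and 4 are shown, chosen after the motif search. All 7 genes searched held a match to at least 1 of 6 motifs. Of all tested genes with a sequence, 55.4% held a HIF core and 55.3% a metal response element, so such a match is common. Among the 7 were CA9 (a HIF core, an AP-1 site and 3 metal response elements), GDF15 and CALD1 (a TEAD site each), which are not printed. GDF15 held no cAMP response element and CALD1 no AP-1 site. The stretches lie directly before the gene start, 5′ to 3′ on the gene's strand, from RefSeq on GRCh38.p14, and each stops before the gene as GENCODE draws it. Capitals mark a HIF core (ACGTG or GCGTG) in PFKFB3, metal response elements (TGCNCNC) in MT1X, a cAMP response element (TGACGTCA) in VGF and an AP-1 site (TGANTCA) in FLG, each searched on both strands. Other matches are left in lower case.
PFKFB3, chr10:6144671-6144920, plus strand: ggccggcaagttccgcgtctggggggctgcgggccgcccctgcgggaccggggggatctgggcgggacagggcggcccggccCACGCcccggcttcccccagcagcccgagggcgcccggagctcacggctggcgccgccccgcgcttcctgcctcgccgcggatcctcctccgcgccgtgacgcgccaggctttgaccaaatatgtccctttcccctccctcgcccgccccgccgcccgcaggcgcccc
MT1X, chr16:56682220-56682423, plus strand: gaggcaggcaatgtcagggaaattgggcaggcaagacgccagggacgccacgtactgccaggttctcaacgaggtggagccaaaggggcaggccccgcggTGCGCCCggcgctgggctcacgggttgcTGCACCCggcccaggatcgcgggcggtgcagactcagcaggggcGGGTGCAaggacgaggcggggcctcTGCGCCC
VGF, chr7:101165594-101165819, minus strand: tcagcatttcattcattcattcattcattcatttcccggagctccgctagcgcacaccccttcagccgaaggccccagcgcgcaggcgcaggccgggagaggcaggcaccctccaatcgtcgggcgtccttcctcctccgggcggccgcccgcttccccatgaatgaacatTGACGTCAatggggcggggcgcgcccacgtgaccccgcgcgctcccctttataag
FLG, chr1:152325240-152325489, minus strand: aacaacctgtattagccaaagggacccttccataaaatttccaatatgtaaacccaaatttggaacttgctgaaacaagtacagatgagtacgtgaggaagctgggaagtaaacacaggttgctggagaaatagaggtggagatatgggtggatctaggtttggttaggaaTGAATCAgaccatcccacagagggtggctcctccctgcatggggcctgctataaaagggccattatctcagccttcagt
The 4 metal response elements of MT1X begin 150, 122, 78 and 53 bases before the RefSeq start. The HIF core of PFKFB3 begins 168, the cAMP response element of VGF 79 and the AP-1 site of FLG 79 bases before it. MT1X, VGF and FLG hold a HIF core as well, 202 bases before the start in MT1X, 54 and 53 in VGF (within an E-box) and 160 in FLG. A match of letters is a description and not a binding site.

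Over the 250 bases before the start, 12296 of the 20714 tested genes had a sequence, among them 60 of the 103 higher and 114 of the 147 lower genes. The HIF core was present in 58.3% of higher, 46.5% of lower and 55.4% of all tested genes with a sequence, and it also matches within the E-box (CACGTG). The E-box stood at 10.0, 8.77 and 8.39%, the AP-1 site at 3.33, 5.26 and 4.32%, and the cAMP response element at 3.33, 1.75 and 2.72%. The TEAD site (GGAATG) was found in 13.3, 8.77 and 9.69%, and the short metal response element in 66.7, 53.5 and 55.3%. These shares are a description, with no test.

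Among the 15 well expressed genes with the largest positive difference, FLG led. FLG (ENSG00000143631, GRCh38 chromosome 1, 152302175 to 152325203) encodes filaggrin, a keratin-bundling protein of the epidermis. It gave 80.2, 67.9 and 59.1 CPM under DMSO and 60.7, 74.1 and 60.2 CPM under JQ1 in VHL-negative cells, and 70.9, 67.7 and 72.4 CPM without and 7.28, 9.68 and 7.63 CPM with JQ1 in VHL-positive cells. The DMSO groups of the lines overlapped, and so did the VHL-negative groups, while JQ1 lowered FLG in VHL-positive cells by 8.58-fold without overlap. The difference was the largest of this set (log2 3.01, SE 0.211, 95% interval 2.56 to 3.46, adjusted p = 1.12e-06) and was called in all 12 fits without 1 library. VGF (ENSG00000128564, GRCh38 chromosome 7, 101162509 to 101165593), a secreted neuroendocrine polypeptide, showed a different course. It went from 9.29, 10.4 and 7.6 to 40.1, 45.6 and 43.9 CPM in VHL-negative cells, while the VHL-positive libraries spread from 43.7 to 63 CPM under both treatments and overlapped. The rise of 4.74-fold brought VGF close to its VHL-positive level (log2 2.13, SE 0.234, 95% interval 1.64 to 2.63, adjusted p = 0.000338; called in all 12 fits).

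CBX5 (ENSG00000094916, GRCh38 chromosome 12, 54230940 to 54280133), heterochromatin protein 1 alpha, moved in opposite directions. Its levels were 283, 249 and 285 CPM without and 437, 728 and 576 CPM with JQ1 in VHL-negative cells, and 477, 426 and 383 CPM without and 268, 275 and 301 CPM with JQ1 in VHL-positive cells. No group overlapped its control, and the difference was called in all 12 fits (log2 1.70, SE 0.235, 95% interval 1.20 to 2.20, adjusted p = 0.00195). MT1X (ENSG00000187193, GRCh38 chromosome 16, 56682424 to 56684196), a metallothionein that binds zinc and copper, measured 14.8, 14.4 and 8.36 CPM without and 148, 76 and 103 CPM with JQ1 in VHL-negative cells. Its VHL-positive libraries measured 2.12, 5.51 and 3.85 CPM without and 4.58, 5.87 and 3.9 CPM with JQ1, which overlapped. The difference was large and its spread wide (log2 2.79, SE 0.435, 95% interval 1.86 to 3.71, adjusted p = 0.00597). MT1X belongs to a family of near-identical genes, so reads can be split among copies and its counts are uncertain. KLF2, a transcription factor of the vascular lineage and the 1 called member of 22 immediate early genes (1.21% of all tested genes were called), went from 3.35, 2.25 and 2.17 to 4.07, 5.3 and 4.62 CPM in VHL-negative cells. In VHL-positive cells it went from 2.3, 4.13 and 2.68 to 1.09, 1.62 and 1.09 CPM (log2 2.09, SE 0.383, adjusted p = 0.016; called in 9 of 12 fits without 1 library, lost without VHL-negative JQ1 replicate 3 or VHL-positive JQ1 replicate 1 or 3).

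GAREM1, an adaptor of growth factor receptors, went from 1.08 ± 0.559 to 9.43 ± 1.36 CPM in VHL-negative cells and from 31.2 ± 7.43 to 72.7 ± 1.67 CPM in VHL-positive cells (log2 1.87, SE 0.344, adjusted p = 0.0162; called in 8 of 12 fits without 1 library, lost without VHL-negative JQ1 replicate 3 or VHL-positive JQ1 replicate 1, 2 or 3). FGFR3, a fibroblast growth factor receptor, also belonged to this set. It went from 5.21 ± 0.444 to 18 ± 1.68 CPM in VHL-negative cells and from 27.6 ± 11.1 to 30.7 ± 3.12 CPM in VHL-positive cells (log2 1.64, SE 0.329, adjusted p = 0.0255; called in 5 of 12 fits without 1 library, with a highest adjusted p of 0.0825). Both had a lower mean in VHL-negative than in VHL-positive cells under both treatments.

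In 5 genes of this set, picked after their values were seen, the VHL-negative JQ1 libraries stood apart from each other. SPEN, a transcriptional corepressor, measured 49.7, 121 and 88.5 CPM there, against 57.1, 58.2 and 53 CPM under DMSO. SSBP3 measured 8.92, 27.6 and 19.1, NFIC (a nuclear factor I) 5.16, 20.2 and 13.9, BAHCC1 (a histone-binding protein) 31.2, 62.7 and 50.1 and PLAC4 5.81, 18.2 and 12.7 CPM in the same 3 libraries. PLAC4 is annotated antisense, so without a stated strand setting its reads cannot be told from those of an overlapping gene. In each of the 5 genes replicate 1 was lowest and replicate 2 highest, the order in which NEAT1 and MALAT1 took 1.5, 4.01 and 2.84% of counts. MT1X, also of this set, had the reverse order, with replicate 1 highest and replicate 2 lowest. Without replicate 2 of that group the differences were log2 1.35 (SPEN), 1.25 (SSBP3), 1.59 (NFIC), 1.72 (BAHCC1) and 1.79 (PLAC4), and without replicate 1 they were 1.93, 1.97, 2.4, 2.17 and 2.51. In VHL-positive cells SPEN went from 104, 84 and 68.5 to 33, 46.1 and 44.2 CPM and NFIC from 41.7, 52.3 and 37.2 to 5.24, 7.82 and 6.94 CPM, without overlap. With all libraries the differences of the 5 genes, in the order above, were log2 1.67, 1.65, 2.03, 1.96 and 2.19. They passed in 4, 2, 1, 12 and 9 of the 12 fits without 1 library.

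Secreted ligands of the TGF-beta superfamily were among the strongest differences. Of 34 tested members of that list 1 was higher (TGFB2), 3 were lower (GDF15, INHBB and PMEPA1) and 30 were not called, with a median of log2 -0.09. Among all tested genes 0.497% were higher and 0.710% lower. GDF15 (ENSG00000130513, GRCh38 chromosome 19, 18374731 to 18389176), a stress-induced cytokine, overlapped between the lines under DMSO. It went from 190.1, 178 and 175 to 18.5, 18.5 and 18.6 CPM in VHL-negative cells and from 181, 191 and 176 to 119, 143 and 119 CPM in VHL-positive cells. Both falls were free of overlap, 9.78-fold in VHL-negative and 1.44-fold in VHL-positive cells. The difference had the smallest adjusted p of all tested genes (log2 -2.76, SE 0.167, 95% interval -3.12 to -2.41, adjusted p = 3.44e-07) and was called in all 12 fits without 1 library.

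TGFB2 and INHBB were near 0 in 1 of the lines. TGFB2, a TGF-beta ligand, fell in VHL-positive cells from 10.3, 11.1 and 13.8 to 2.18, 2.31 and 1.78 CPM. In VHL-negative cells 31 counts under DMSO and 34 under JQ1 were found over 3 libraries each, an effect of log2 0.42 (SE 0.407), and the difference was called (log2 2.90, SE 0.487, adjusted p = 0.00931; called in 11 of 12 fits without 1 library, lost without VHL-negative JQ1 replicate 3). Other genes overlap 26.6% of TGFB2 exons. INHBB, an activin subunit, fell in VHL-negative cells from 16, 14.2 and 16.5 to 7.31, 7.15 and 6.49 CPM, and in VHL-positive cells it had 7 and 21 counts in all (log2 -2.97, SE 0.54, adjusted p = 0.0155; called in 8 of 12 fits without 1 library, lost without VHL-negative JQ1 replicate 3, VHL-positive DMSO replicate 3 or VHL-positive JQ1 replicate 1 or 2). PMEPA1, a TGF-beta-induced inhibitor of the pathway, went from 178 ± 25.3 to 71 ± 10.0 CPM in VHL-negative and from 42.6 ± 1.04 to 36 ± 4.06 CPM in VHL-positive cells (log2 -1.08, SE 0.198, adjusted p = 0.0159; called in 9 of 12 fits without 1 library, lost without VHL-negative JQ1 replicate 3 or VHL-positive JQ1 replicate 1 or 3).

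Matrix and cytoskeletal genes gave calls in 1 direction. Of 40 tested members of the matrix and mesenchymal list 0 were higher and 3 lower (CALD1, MMP14 and FN1), with a median of log2 -0.18. The shares over all tested genes were 0.497% higher and 0.710% lower. In 5 groups of protein-coding genes by exon length the median ran from log2 -0.21 to -0.03. CALD1 (ENSG00000122786, GRCh38 chromosome 7, 134744252 to 134970728) encodes caldesmon, which binds actin and myosin. It went from 156, 141 and 169.9 to 44.8, 38.7 and 36.3 CPM in VHL-negative cells, whereas VHL-positive libraries measured 219, 248 and 189.7 CPM under DMSO and 192, 188 and 181 CPM under JQ1. The fall was 3.89-fold in VHL-negative cells, and the VHL-positive groups overlapped (log2 -1.74, SE 0.189, 95% interval -2.14 to -1.34, adjusted p = 0.000338). MMP14 (ENSG00000157227, GRCh38 chromosome 14, 22836557 to 22849027), a membrane-bound collagenase, went from 85.8, 83.7 and 80.7 to 46.3, 34 and 38.5 CPM in VHL-negative cells and from 101, 101 and 101 to 126, 117 and 114 CPM in VHL-positive cells. Its difference (log2 -1.31, SE 0.175, 95% interval -1.68 to -0.94, adjusted p = 0.00152) and that of CALD1 were called in all 12 fits. FN1, fibronectin, fell in both lines, 3.64-fold in VHL-negative and 1.6-fold in VHL-positive cells (log2 -1.19, SE 0.243, adjusted p = 0.0282; called in 5 of 12 fits without 1 library, with a highest adjusted p of 0.112).

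LAMA1 (ENSG00000101680, GRCh38 chromosome 18, 6941744 to 7117814), the alpha 1 chain of basement membrane laminin, had the largest negative difference among called genes with a mean log2 CPM of at least 3. It measured 7.13, 8.4 and 6.99 CPM under DMSO and 0.854, 1.31 and 0.932 CPM under JQ1 in VHL-negative cells. Its VHL-positive libraries measured 83.4, 91.1 and 100.2 CPM without and 139, 169.5 and 147 CPM with JQ1. The lines were 12.2-fold apart under DMSO and 147-fold under JQ1, and JQ1 moved them in opposite directions without overlap. The difference was called in all 12 fits (log2 -3.63, SE 0.23, 95% interval -4.12 to -3.14, adjusted p = 3.66e-07). LIMA1, an actin filament stabiliser, also moved in opposite directions in the lines, but the lines came closer together. It went from 119, 107 and 132 to 85, 61.5 and 64 CPM in VHL-negative cells and from 34.6, 57.9 and 44.3 to 71.3, 77.8 and 72 CPM in VHL-positive cells, which brought the lines to like levels (log2 -1.46, SE 0.244, adjusted p = 0.00917; called in 11 of 12 fits without 1 library, lost without VHL-negative JQ1 replicate 3).

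Coagulation and iron genes gave calls in the negative direction. Of 15 tested coagulation and plasminogen genes 2 were lower (F3 and F2RL1) and 0 higher, with a median of log2 -0.17. For comparison, 0.710% of all tested genes were lower and 0.497% higher. F3 (ENSG00000117525, GRCh38 chromosome 1, 94529225 to 94541800), tissue factor, went from 124, 114 and 116 to 36.9, 29.3 and 32.6 CPM in VHL-negative cells and from 13.8, 15 and 14.2 to 9.97, 10.5 and 9.76 CPM in VHL-positive cells. It fell without overlap in both, by 3.58-fold and 1.42-fold, and the difference was called in all 12 fits (log2 -1.33, SE 0.171, 95% interval -1.69 to -0.97, adjusted p = 0.00117). F2RL1, a protease-activated receptor that signals downstream of tissue factor, had a smaller difference (log2 -1.05, SE 0.232, adjusted p = 0.0398; called in 2 of 12 fits without 1 library, with a highest adjusted p of 0.137). CP (ENSG00000047457, GRCh38 chromosome 3, 149162410 to 149222055) encodes ceruloplasmin, the copper ferroxidase of plasma, and is a member of no list. Other genes overlap 19.4% of its exons. It went from 85.3, 75.1 and 82 to 17.5, 11.7 and 12.9 CPM in VHL-negative and from 42.4, 55.4 and 50.3 to 30.7, 25.9 and 25.7 CPM in VHL-positive cells (log2 -1.67, SE 0.219, 95% interval -2.14 to -1.21, adjusted p = 0.00133). Of 13 iron genes STEAP3, an endosomal ferrireductase, was the 1 called (log2 -1.01, SE 0.207, adjusted p = 0.0283; called in 4 of 12 fits without 1 library, with a highest adjusted p of 0.109).

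Further named genes in no list, CRISPLD2, RAB29, FOXN3 and GPRC5C, were lower and called in all 12 fits without 1 library. Like LAMA1 and CP, they were taken by the rule for named genes as largest negative differences. Lower genes that the rule does not name, HSPBAP1 and TMCC3 among them, also passed in all 12 fits. CRISPLD2 (ENSG00000103196, GRCh38 chromosome 16, 84819984 to 84920768), a secreted glycoprotein, went from 372, 309 and 295 to 52.2, 41.5 and 47.7 CPM in VHL-negative cells and from 296, 214 and 309 to 119, 133 and 111 CPM in VHL-positive cells (log2 -1.61, SE 0.221, 95% interval -2.08 to -1.14, adjusted p = 0.00181). RAB29, a small GTPase of the endolysosomal system, went from 33, 29.2 and 30.1 to 13, 10.1 and 10.5 CPM in VHL-negative cells. In VHL-positive cells RAB29 measured 78.5, 65.3 and 70.7 CPM without and 69.6, 76.1 and 73.1 CPM with JQ1, with overlap (log2 -1.48, SE 0.181, 95% interval -1.87 to -1.10, adjusted p = 0.000872). FOXN3, a forkhead transcriptional repressor, was lowered from 214, 179 and 188 to 106, 80.0 and 86.9 CPM in VHL-negative cells, and in VHL-positive cells it measured 45, 46.9 and 50.7 CPM without and 63.1, 61.7 and 55.9 CPM with JQ1 (log2 -1.43, SE 0.185, 95% interval -1.82 to -1.04, adjusted p = 0.0012). GPRC5C, an orphan receptor, measured 21.2 ± 3.74 CPM without and 8.32 ± 1.44 CPM with JQ1 in VHL-negative and 19.1 ± 1.18 CPM without and 20.5 ± 2.1 CPM with JQ1 in VHL-positive cells (log2 -1.44, SE 0.223, adjusted p = 0.00576).

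Lipid and sterol genes had more negative than positive differences. The median difference was negative in protein-coding genes of every exon length, between log2 -0.21 and -0.03 in 5 groups. Of 24 cholesterol synthesis genes 22 had a negative difference, 17 of them at an unadjusted p under 0.05, and 2 were called (INSIG1 and FDFT1; 0.710% of all tested genes were called lower), with a median of log2 -0.54 against 0.01 over all tested genes. Over 23 other settings that median ran from -0.65 to -0.41. At an unadjusted p under 0.05, 4657 of all 20714 tested genes passed, in either direction. INSIG1, the sterol sensor that holds SREBP in the endoplasmic reticulum, measured 76, 72.4 and 83.4 CPM under DMSO and 71.5, 52.3 and 60.0 CPM under JQ1 in VHL-negative cells. In VHL-positive cells it rose from 68.6, 88.1 and 89.4 to 131, 136 and 141 CPM (log2 -1.06, SE 0.197, adjusted p = 0.017; called in 8 of 12 fits without 1 library, lost without VHL-negative JQ1 replicate 3 or VHL-positive JQ1 replicate 1, 2 or 3). FDFT1, squalene synthase, rose in VHL-positive cells from 110.0, 113 and 135 to 220.2, 201 and 207 CPM, and in VHL-negative cells JQ1 replicate 1 stood at 72.6 CPM, within the DMSO range, and replicates 2 and 3 at 40.0 and 51.7 CPM (log2 -1.23, SE 0.244, adjusted p = 0.0237; called in 8 of 12 fits without 1 library, lost without VHL-negative JQ1 replicate 3 or VHL-positive JQ1 replicate 1, 2 or 3).

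LPIN1, a phosphatidate phosphatase on the way to triglyceride, was the 1 called member of 13 triglyceride synthesis enzymes. It went from 88, 84.5 and 85.8 to 74.7, 62.8 and 64 CPM in VHL-negative cells and from 81.4, 72 and 92.6 to 129, 130.5 and 135 CPM in VHL-positive cells (log2 -1.04, SE 0.173, adjusted p = 0.00911; called in 11 of 12 fits without 1 library, lost without VHL-negative JQ1 replicate 3). Among 15 lipid droplet coat proteins and lipases HILPDA alone was called, and 10 of the 15 had a negative difference, with a median of log2 -0.33. PLIN2, the main droplet coat protein, had a difference of log2 -0.72 (adjusted p = 0.128). Of 25 fatty acid oxidation genes and 24 genes of fatty acid synthesis and uptake 0 were called, with medians of log2 -0.35 and -0.33. In each, 9 lower members passed at an unadjusted p under 0.05. Over all 20714 tested genes 1.21% were called, and 4657 passed that unadjusted threshold in either direction.

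Of 46 DNA replication genes 42 had a positive difference, 13 at an unadjusted p under 0.05, with a median of log2 0.40. That threshold was passed by 4657 of all 20714 tested genes, in either direction. Called higher were 2 of the 46 (UHRF1 and CDT1), against 0.497% of all tested genes. UHRF1, which recruits maintenance DNA methylation, measured 74.1, 71.7 and 62.6 CPM without and 72.6, 96.5 and 89 CPM with JQ1 in VHL-negative cells and 54.6, 92.2 and 59.6 CPM without and 30.9, 31.3 and 34.6 CPM with JQ1 in VHL-positive cells (log2 1.40, SE 0.248, adjusted p = 0.0142; called in 9 of 12 fits without 1 library, lost without VHL-negative JQ1 replicate 3 or VHL-positive JQ1 replicate 1 or 2). CDT1, a replication licensing factor, measured 38.4, 33.5 and 33.8 CPM without and 30.2, 43 and 36.9 CPM with JQ1 in VHL-negative and 31.2, 53.9 and 32.5 CPM without and 16.2, 14.9 and 15.8 CPM with JQ1 in VHL-positive cells (log2 1.38, SE 0.266, adjusted p = 0.0205; called in 5 of 12 fits without 1 library, with a highest adjusted p of 0.0722). VHL-positive DMSO replicate 2 was the highest of its group for both. The same library had a median log2 CPM of 6.04 over the replication list, against 5.14 and 5.57 in replicates 1 and 3, and without it the median difference of the list was log2 0.19, in place of 0.40. The list median ran from log2 0.19 to 0.53 over all settings. Without that library UHRF1 stood at log2 1.11 and CDT1 at 1.05. Of 43 mitosis genes 0 were called and 38 were positive, with a median of log2 0.22, which was 0.07 without VHL-positive DMSO replicate 2 and 0.08 without VHL-negative JQ1 replicate 1.

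The called cell cycle inhibitors were lower. CDKN1A, the p21 inhibitor and a p53 target, rose in both lines, 1.34-fold from 124 ± 8.24 CPM in VHL-negative and 2.6-fold from 107 ± 13.2 CPM in VHL-positive cells (log2 -0.95, SE 0.187, adjusted p = 0.022; called in 6 of 12 fits without 1 library, with a highest adjusted p of 0.0995). CDKN1C, the p57 inhibitor, fell from 4.11 ± 0.611 to 1.53 ± 0.503 CPM in VHL-negative cells and measured 8.24 ± 2.55 CPM without and 9.52 ± 0.200 CPM with JQ1 in VHL-positive cells (log2 -1.59, SE 0.352, adjusted p = 0.0407; called in 3 of 12 fits without 1 library, with a highest adjusted p of 0.106). Of 23 cell cycle inhibitors and cyclins these 2 were called, and of 26 tested members of the p53 target list CDKN1A alone. That list does not hold every target of p53. The called share over all tested genes was 1.21%, with 0.710% lower.

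Stress and immune genes gave single calls, where 1.21% of all tested genes were called. TXNRD1, thioredoxin reductase and a target of NRF2, went from 257, 338 and 381 to 746, 484 and 597 CPM in VHL-negative cells and from 496, 419 and 655 to 2872, 2228 and 2470.5 CPM in VHL-positive cells. The rise was 1.87-fold and 4.82-fold (log2 -1.37, SE 0.289, adjusted p = 0.0325), and the call was lost without VHL-negative DMSO replicate 2 or 3, VHL-negative JQ1 replicate 2 or 3, VHL-positive DMSO replicate 1 or VHL-positive JQ1 replicate 1, 2 or 3 (adjusted p from 0.0542 to 0.112). Of 25 NRF2 pathway genes it was the 1 called, and 23 of the 25 had a negative difference, with a median of log2 -0.38. NUPR1, a stress-induced chromatin protein, fell in both lines, 8.6-fold and 2.28-fold (log2 -1.89, SE 0.404, adjusted p = 0.0338; called in 5 of 12 fits without 1 library, with a highest adjusted p of 0.12), the 1 called gene of 27 in the ATF4 and unfolded protein response list. SAMD9, an interferon-induced antiviral factor, went from 11.1 ± 1.9 to 3.04 ± 0.753 CPM in VHL-negative cells and from 34 ± 3.89 to 26 ± 0.465 CPM in VHL-positive cells (log2 -1.46, SE 0.242, adjusted p = 0.00911; called in 11 of 12 fits without 1 library, lost without VHL-negative JQ1 replicate 3), the 1 called of 43 interferon-stimulated genes. CASP4, the inflammatory caspase that senses lipopolysaccharide, fell 4.36-fold in VHL-negative and 1.59-fold in VHL-positive cells (log2 -1.45, SE 0.257, adjusted p = 0.0144; called in 10 of 12 fits without 1 library, lost without VHL-negative JQ1 replicate 3 or VHL-positive JQ1 replicate 2). Of 31 NF-kB and inflammatory genes 0 were called, with a median of log2 0.37 that ran from -0.09 to 0.65 over other settings.

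Lineage and receptor genes completed the named set. CDH6, a kidney cadherin, had a higher response (log2 1.00, SE 0.233, adjusted p = 0.0481; called in 2 of 12 fits without 1 library, with a highest adjusted p of 0.138). With VHL present it went from 655, 400.0 and 410.5 to 203, 208 and 187 CPM, and the VHL-negative libraries stood at 86.9, 80.7 and 86 CPM without and 66.9, 75.5 and 65.5 CPM with JQ1. KRT7, an epithelial keratin, was lower (log2 -1.54, SE 0.351, adjusted p = 0.044; called in 3 of 12 fits without 1 library, with a highest adjusted p of 0.143). These were the 2 called of 26 renal epithelial markers. Of 27 YAP and TEAD targets TGFB2 was higher and F3 and AXL lower, with a median of log2 -0.14. Shares of 0.497% higher and 0.710% lower held over all tested genes. AXL, a receptor tyrosine kinase, fell 2.36-fold and 1.33-fold (log2 -0.83, SE 0.192, adjusted p = 0.0481; called in 1 of 12 fits without 1 library, with a highest adjusted p of 0.162). ATOH8, a basic helix-loop-helix factor, fell in both, 8.97-fold and 2.91-fold (log2 -1.61, SE 0.369, adjusted p = 0.0452; called in 3 of 12 fits without 1 library, with a highest adjusted p of 0.122). Also named were XKR7 (log2 1.57, SE 0.274, adjusted p = 0.0125; called in 9 of 12 fits without 1 library, lost without VHL-negative JQ1 replicate 3 or VHL-positive JQ1 replicate 1 or 2) and the noncoding CNN3-DT (log2 -1.41, SE 0.255, adjusted p = 0.015; called in 10 of 12 fits without 1 library, lost without VHL-negative JQ1 replicate 3 or VHL-positive JQ1 replicate 2), the latter annotated antisense, so that without a stated strand setting its reads cannot be told from those of an overlapping gene.

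**Figure D4:**
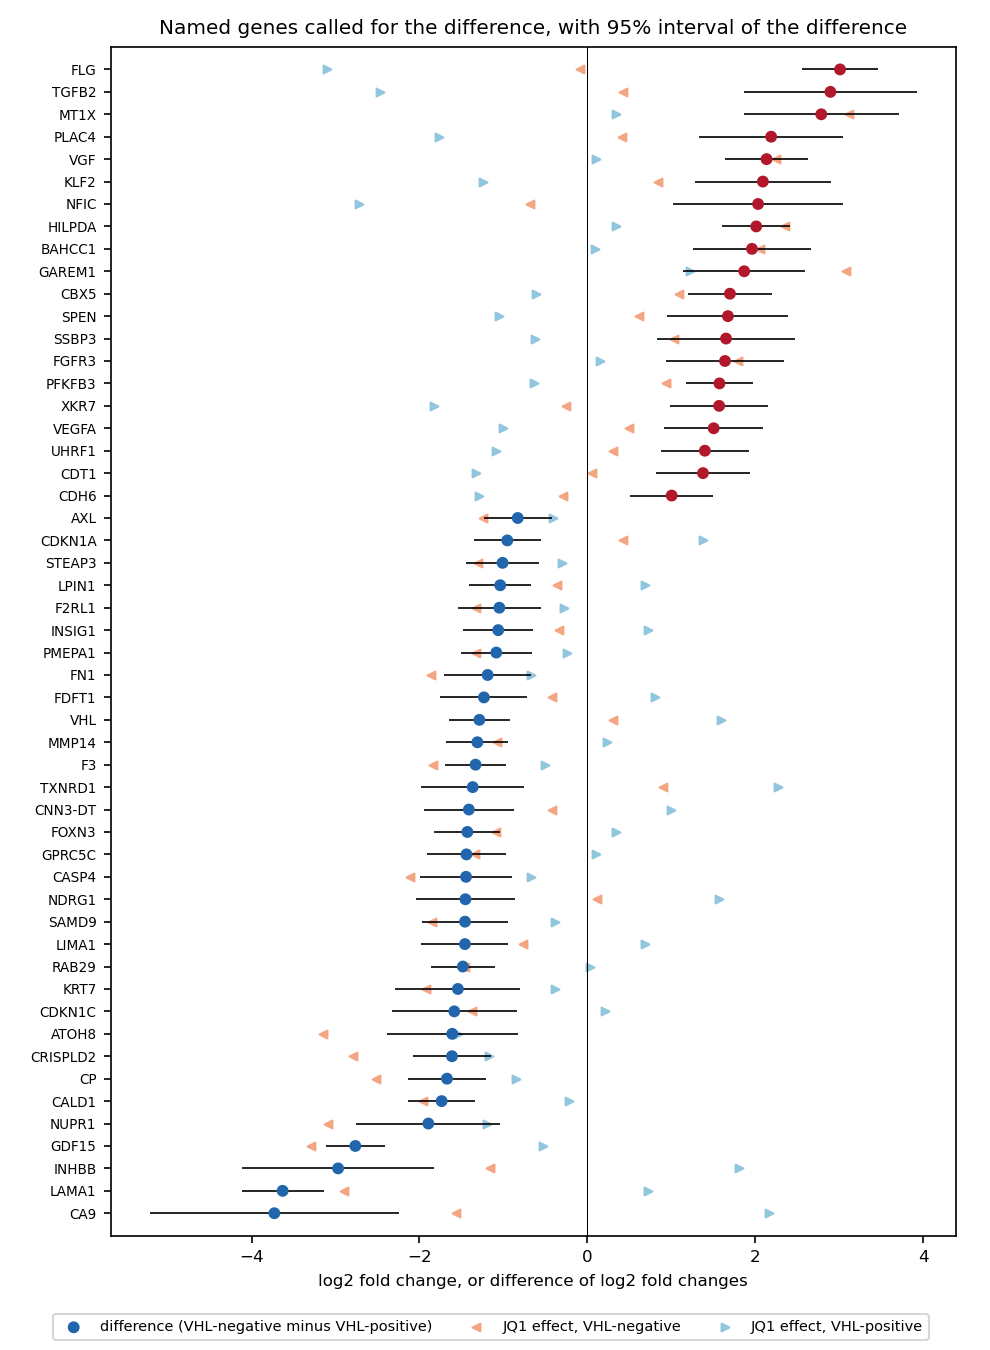
Difference between the JQ1 effects for 52 named genes that were called (points; horizontal axis, log2 scale; lines, 95% interval), beside the JQ1 effect in VHL-negative (left-pointing marks) and VHL-positive cells (right-pointing marks). FLG stands at 3.01, GDF15 at -2.76, LAMA1 at -3.63 and CA9, whose interval runs from -5.22 to -2.24, at -3.73.

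Of 46 tested MYC target genes 0 were called, which at 1.21% called over all tested genes is near the background. Of them 3 were higher and 5 lower at an unadjusted p under 0.05, against 4657 of all 20714 tested genes in either direction. The median was log2 -0.08. The median JQ1 effect in the list was log2 -0.48 in VHL-negative and -0.28 in VHL-positive cells, and 20 and 18 members fell. Of 12 factors of the MYC network 0 were called, with MXI1 and MYC nearest. Among 18 known BET inhibitor response genes the 1 called was CDKN1C, and of 15 factors of P-TEFb and 7SK 0 were, with CDK9, its kinase, nearest (log2 0.72, SE 0.276, adjusted p = 0.151). The other lists without a call were complement (13 tested), MAPK feedback (21), replication-dependent histones (40), mitochondrially encoded mRNAs (13), heat shock proteins (18), BCL2 family (16), semaphorins and ephrins (26), JmjC demethylases (20), nuclear noncoding RNAs (19), and the endothelial (3), leukocyte (3) and fibroblast (4) markers. Their medians lay between log2 -0.26 and 0.26, apart from 1.09 over the 3 leukocyte markers. Growth factors and their receptors (29 tested) had VEGFA higher and AXL lower. Among uncalled protein-coding genes that the rule names, the 4 of smallest adjusted p were the histone gene H3C6 (log2 -1.05, SE 0.255, adjusted p = 0.0541), the MAPK phosphatase DUSP10 (log2 -0.86, SE 0.211, adjusted p = 0.0569), the small heat shock protein CRYAB (log2 -1.92, SE 0.473, adjusted p = 0.0587) and the translation factor EIF4A1 (log2 0.97, SE 0.244, adjusted p = 0.0631). H3C6 has near-identical copies, and other genes overlap 20.6% of CRYAB and 48.6% of EIF4A1 exons.

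Ribosomal protein and oxidative phosphorylation genes had mostly negative differences and no call. Of 55 cytosolic ribosomal protein genes 53 had a negative difference and 33 passed at an unadjusted p under 0.05. That unadjusted threshold was passed by 4657 of all 20714 tested genes, in either direction. With 0 called (1.21% over all tested genes), the list had a median of log2 -0.60, the lowest of the lists with at least 10 tested members. RPL23 came nearest (log2 -1.01, SE 0.272, adjusted p = 0.0737). The median log2 CPM over the list was 8.09, 7.09 and 7.80 in the VHL-negative JQ1 libraries, 8.04, 7.73 and 7.76 under DMSO, and between 8.06 and 8.11 in the VHL-positive JQ1 libraries against 7.70 to 7.76 under DMSO. Without VHL-negative JQ1 replicate 2, the lowest library, the median difference was -0.42, and without replicate 1 it was -0.90, the ends of its range over all settings. Of 54 nuclear genes of oxidative phosphorylation 49 were negative and 0 called (median log2 -0.48), with list medians of 5.51, 4.71 and 5.20 in the 3 VHL-negative JQ1 libraries, and -0.30 without replicate 2 and -0.73 without replicate 1. Lysosome and autophagy genes (36 tested, 32 negative, 0 called, median log2 -0.44), MHC class I genes (16 tested, 13 negative, 0 called, -0.50) and thioredoxin genes (16 tested, 14 negative, 1 called, -0.57, the call being TXNRD1) had medians nearby. In the thioredoxin list the VHL-negative JQ1 libraries stood at 6.37, 5.50 and 6.01, against 6.34 to 6.46 under DMSO, with replicate 2 lowest again. Replicate 2 was also the lowest of its group for the lysosome list (6.22, 5.80 and 6.09), the MHC class I list (6.69, 6.52 and 6.65) and the cholesterol list (5.33, 4.86 and 5.02). Without that library the median difference of the thioredoxin list was -0.42.

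**Figure D5:**
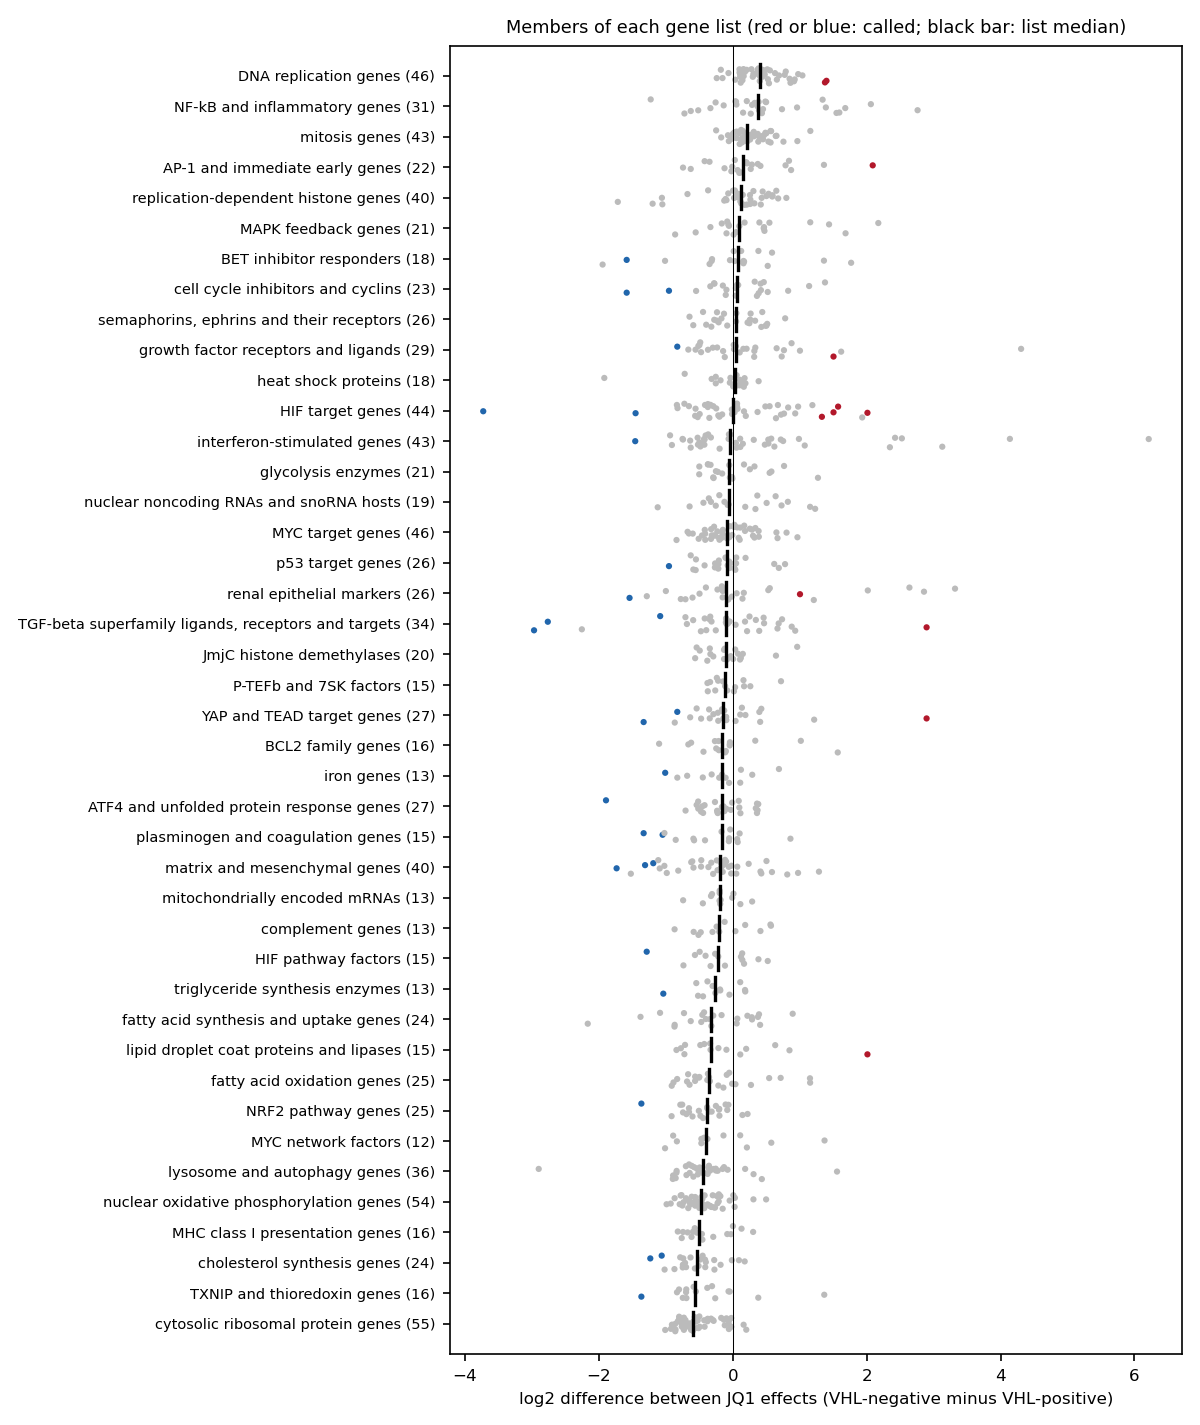
Difference between the JQ1 effects (horizontal axis, log2 scale) for the tested members (points) of each gene list with at least 10 of them, with the number tested in brackets; black bars mark list medians, and called members are red (higher) or blue (lower). List medians run from -0.60 for ribosomal proteins to 0.40 for DNA replication genes, and most lists hold 0 to 2 called genes.

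Protein-coding genes were 65.6% of tested genes, 71.8% of the higher and 90.5% of the lower genes, and noncoding genes were 22.7, 21.4 and 7.48%. A mean log2 CPM of at least 3 was reached by 9886 of the 20714 tested genes. Of the 103 higher genes 45 reached it, and of the 147 lower genes 114. The part of expression level in these shares was not tested. With protein-coding genes only in the fit, 149 were higher and 138 lower, in place of 103 and 147, and with library totals in place of TMM 112 were higher and 87 lower. Protein-coding genes were put in 5 equal groups by exon length. The median difference was log2 -0.21 in the group of shortest genes (207 to 2920 bases) and -0.03 in the longest (8325 to 118976 bases). Over the shortest genes VHL-negative JQ1 replicate 2 had the lowest library median, at log2 -0.26 from the mean of all libraries, and replicates 1 and 3 stood at 0.08 and -0.10. The part of transcript length in the differences was not tested.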

How the data were processed

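RNA of 12 RCC4 libraries, 3 in each of 4 groups taken from the sample labels, was measured by total RNA sequencing after rRNA depletion. The authors deposited raw counts per Ensembl gene; per the submitters' processing notes STAR 2.7.8, Subread 2.0.3 with featureCounts, DESeq2 1.30.1 and GRCh38 were used. No source used here gives a strand setting. Reads that several genes share can be lost or split in such counting. The authors' tables of JQ1 against DMSO were not used.

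Counts were fitted with edgeR 4.0.16 in R 4.3.3 (4 group means, TMM scaling, filterByExpr, quasi-likelihood test), and the contrast was the JQ1 effect in VHL-negative minus that in VHL-positive cells, with Benjamini-Hochberg adjustment over 20714 genes. Called means an adjusted p under 0.05. All 12 libraries share 1 estimate of the spread. Rose and fell refer to the JQ1 effect within a line at the same threshold, and ± is the SD over 3 libraries. Printed levels are TMM-scaled CPM; they do not compare genes of unequal length. Positions and exon overlaps come from GENCODE 29 (58395 IDs found). Named were VHL, MYC and HILPDA; the 15 largest positive and 15 largest negative called differences with a mean log2 CPM of at least 3; and up to 4 called members of each of 45 lists, or its member of smallest p. Some genes that the rule names are not reported here. The members, lists, rule and alternatives were chosen with earlier results of these data known. Alternatives used DESeq2 1.42.0, limma 3.58.1, other scalings and filters, the replicate number as a block, and each library left out. The fit was tested on simulated data, with the changed genes taken from those with higher counts. The simulated counts were drawn independently for each gene and library, and JQ1 had no effect apart from changes planted in VHL-negative cells. The fit recovered 1.49% of 1.5-fold, 37.3% of 2-fold and 93.9% of 4-fold differences, with 3 false calls beside 88 true ones. Shifts that many genes of a library share were absent from the simulation, so it does not measure the false calls in these data.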

Additional observations from a re-analysis of the deposited data

Results flagged for a closer look

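The 250 genes called for the difference are the genes in which the JQ1 effect differed between the lines by a test of the difference itself (edgeR's quasi-likelihood test). Among the named genes, 8 also had JQ1 effects that passed the test in opposite directions in the lines. JQ1 raised KLF2 (difference of log2 2.09), CBX5 (1.70) and PFKFB3 (1.57) in VHL-negative cells and lowered them in VHL-positive cells. It lowered LPIN1 (log2 -1.04), LIMA1 (-1.46), INHBB (-2.97), LAMA1 (-3.63) and CA9 (-3.73) in VHL-negative cells and raised them in VHL-positive cells. INHBB and CA9 had few counts in VHL-positive cells, and there their JQ1 libraries overlapped the DMSO libraries. For CA9, VHL-positive JQ1 replicate 3 had no count. With 3 libraries in a group, no single library was tested as an outlier.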

How the results depend on the processing

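The count of called genes, 250, was 250 with median-of-ratios size factors, 199 with total counts (112 higher and 87 lower), 282 at 1 CPM or more in 3 libraries, 198 with limma-voom, 257 without mitochondrial and structural RNA genes, 287 with protein-coding genes only (149 higher and 138 lower) and 205 with the first DMSO library of each line left out (107 higher and 98 lower). It was 1336 (672 higher, 664 lower) with no filter on low counts, 1188 (464 higher, 724 lower) with DESeq2, of which 237 were shared, 25 with the third JQ1 library of each line left out and 47 at an adjusted p under 0.01; the cause was not tested. Without 1 library the count ran from 43 to 3510. With the replicate number as a block it was 272 (112 higher, 160 lower), 209 of them shared. Correlations of the deviations of same-numbered libraries ran from -0.26 to 0.33 over 18 pairs, 4 of them over 0.1, and 5 of 12 libraries correlated best with their own number, so the numbers were not taken to pair libraries. All 54 named called genes kept their sign in the 23 settings, and 14 kept the call in every one. Of the 250 genes, 19 passed in all 23. MT-ATP8, a mitochondrially encoded gene, was log2 -0.74 and not called, and it reversed to 0.71 with the first DMSO library of each line left out and to 0.48 without VHL-negative DMSO replicate 1, within a range of -1.24 to 0.48 over the fits without 1 library. Of 45 list medians, 22 kept their sign in all settings. The median SE of 0.314 limits what can be called, and 14 called genes have a group with at most 3 counts in every library.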

Other observations

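The genes below were chosen after their values were seen, from called genes outside the rule for named genes, and their values are a description. EDN1, the vasoconstrictor endothelin 1, measured 61.6, 43.2 and 53.6 CPM under DMSO and 4.48, 3.1 and 2.37 CPM under JQ1 in VHL-negative cells. In VHL-positive cells it measured 1.28, 3.19 and 2.83 and 1.53, 1.54 and 0.976 CPM, and the difference was log2 -3.16 (SE 0.43). MAOA, monoamine oxidase A, fell in VHL-negative cells from 46.9, 34.5 and 51.4 to 6.9, 4.11 and 4.58 CPM, and its mean in VHL-positive cells went from 0.271 to 0.338 CPM (log2 -3.43). SLC2A2, the glucose transporter of the proximal tubule and liver, went the other way. It fell in VHL-positive cells from 4.93, 5.19 and 4.88 to 0.400, 0.243 and 0.459 CPM, while VHL-negative libraries measured 0.424, 0.71 and 0.76 and 0.82, 0.715 and 0.544 CPM (log2 3.90).

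Of 4 metallothioneins tested, MT1X alone was called. The adjusted p of the difference by edgeR's quasi-likelihood test was 0.218 for MT1E (log2 0.88), 0.226 for MT2A (log2 0.84) and 0.843 for MT1F (log2 0.13). Reads can be split among these near-identical genes.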
